A study of Mus musculus with 6 samples.

Results

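The 6 genes described here encode the cytosolic sensors of bacterial cell wall fragments NOD1 and NOD2, their adaptor kinase RIPK2, and the proton-coupled peptide transporters SLC15A2, SLC15A3 and SLC15A4. They were found in the count table by Ensembl identifier, through the gene names of GENCODE M21, and make up 6 of its 55335 genes. Total RNA was sequenced from bone marrow derived macrophages (BMDMs) of C57BL/6 mice, all wild-type, in 6 libraries. In 3 of them the cells had received PBS, and in 3 they had received LPS, the outer membrane lipid of Gram-negative bacteria that TLR4 senses, and both groups were collected at 1 h. The methods state male mice of 7 to 10 weeks, whose marrow was grown for 6 d in medium conditioned by L929 cells, so the libraries describe cultured macrophages rather than tissue. Labels give each group replicates 1 to 3 and call the same numbers batches, but do not say whether the replicates came from separate mice or separate cultures. The p-values therefore measure the spread between these libraries.

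NOD1 recognizes peptides that contain diaminopimelic acid, and NOD2 recognizes muramyl dipeptide. Both pair with RIPK2 through their caspase recruitment domains, and RIPK2 then carries ubiquitin chains on which the TAK1 and IKK kinases are activated and NF-κB is released. Muropeptides that reach a macrophage from outside, or that are freed in a phagosome, have to cross a membrane to meet NOD1 and NOD2. SLC15A2 is a peptide transporter of the plasma membrane, whereas SLC15A3 and SLC15A4 are peptide and histidine transporters of endosomes and lysosomes. SLC15A4 also holds the adaptor TASL, through which endosomal Toll-like receptors engage IRF5.

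At 1 h, Nod2 and Ripk2 rose together whereas no difference was detected for Nod1, and among the transporters Slc15a3 and Slc15a2 rose while Slc15a4 fell. All 6 genes passed the filter on low counts and were tested with edgeR's quasi-likelihood test over 15687 genes. Genes were called at an adjusted p under 0.05 with an absolute log2 fold change above 1, the thresholds of the study. Of the 6 genes, 4 were called higher in LPS cells, where 10.5% of all tested genes were, and 0 were called lower, where 10.4% were. By the adjusted p alone, 4 were higher and 1 was lower, against 32.9% and 34.9% of all tested genes. Normalized levels of PBS and LPS libraries did not overlap for 5 of the 6 genes, and the same held for 70.5% of all tested genes. Levels are given as normalized CPM, which are counts relative to the library total after scaling of the libraries by TMM factors.

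**Figure D1:**
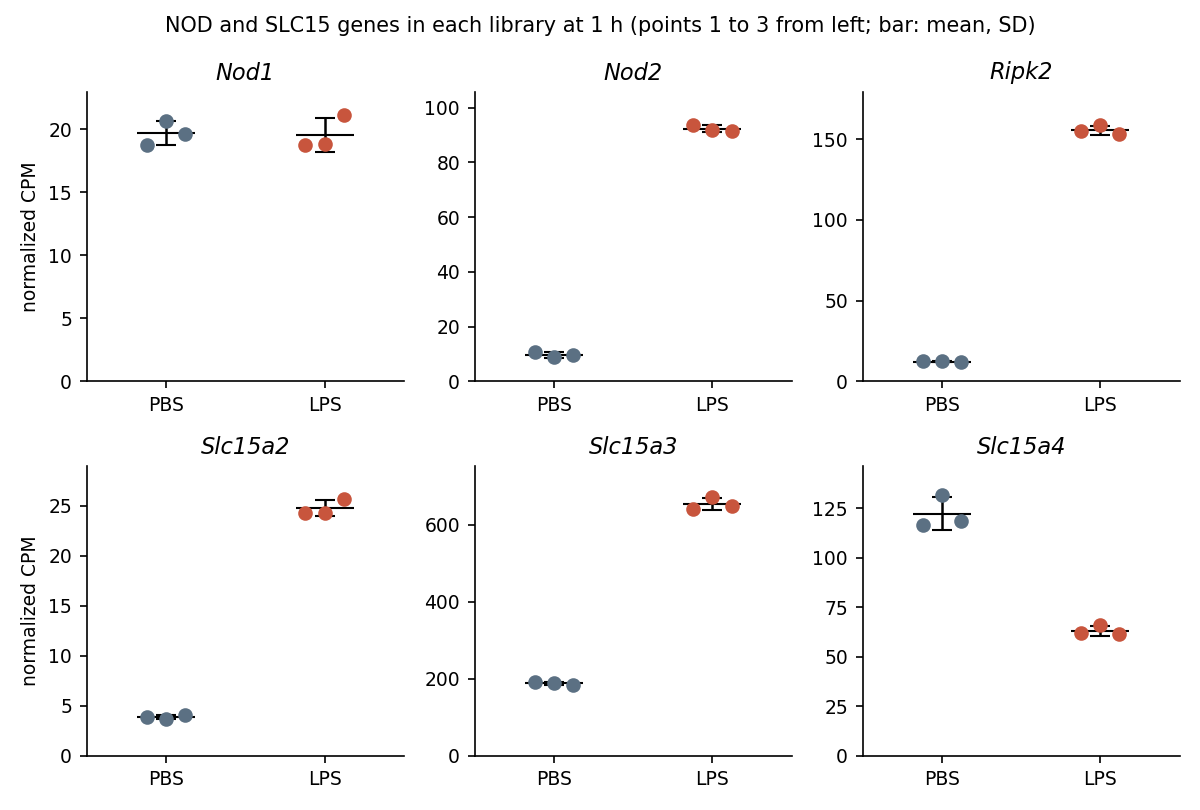
Normalized CPM (vertical axes, linear from 0 and different in each panel) of the 6 genes in the 3 PBS and 3 LPS libraries, with points for replicates 1 to 3 from left to right and a bar for the mean and SD. Nod1 lies between 18.7 and 21.1 CPM in all 6 libraries, Nod2, Ripk2, Slc15a2 and Slc15a3 are higher in each LPS library than in any PBS library, and Slc15a4 is lower.

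Nod1 (ENSMUSG00000038058.14, chromosome 6, 54923949 to 54972612, minus strand, GRCm38) had 894, 934 and 905 counts in PBS and 629, 614 and 719 in LPS libraries. Its normalized level was 18.8, 20.7 and 19.6 CPM in PBS and 18.7, 18.8 and 21.1 CPM in LPS libraries. The groups overlapped, with means of 19.7 ± 0.951 and 19.6 ± 1.36 CPM (SD, n = 3 each). The log2 fold change was -0.0084 (SE 0.06, with a 95% interval of -0.13 to 0.11, adjusted p = 0.912 by edgeR), so no difference was detected. The raw counts were lower in each LPS library, and with scaling by library size alone the log2 fold change was -0.41 (adjusted p = 1.06e-05 by edgeR). Under that scaling the median of all tested genes moved from -0.01 to -0.42.

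Nod2 (ENSMUSG00000055994.15, chromosome 8, 88647315 to 88688474, plus strand) had 515, 396 and 439 counts in PBS and 3142, 3002 and 3111 in LPS libraries. In normalized CPM these were 10.8, 8.77 and 9.51 against 93.6, 92.0 and 91.4. Each LPS library was far above each PBS library, and the mean rose from 9.70 ± 1.04 to 92.3 ± 1.15 CPM (SD, n = 3 each), 9.51-fold. LPS cells exceeded PBS cells by 3.25 on the log2 scale (SE 0.06, edgeR adjusted p = 4.59e-19), and in the same-numbered pairs the log2 difference was 3.11, 3.39 and 3.26. Its place was 432 from the top among the 15687 log2 fold changes.

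Ripk2 (ENSMUSG00000041135.15, chromosome 4, 16122733 to 16163647, minus strand) had the largest fold change of the 6 genes, though differences between genes were not tested. It had 592, 560 and 557 counts in PBS and 5193, 5175 and 5214 in LPS libraries. The normalized level was 12.4, 12.4 and 12.1 CPM in PBS and 154.7, 158.6 and 153.2 CPM in LPS libraries, and the spread within either group was small beside the gap between them. This was a log2 fold change of 3.66 (SE 0.04, edgeR adjusted p = 6.6e-22), 12.6-fold, with 3.64, 3.68 and 3.67 in the same-numbered pairs. Ripk1, the family member that serves TNF receptors, moved the other way in the same libraries, with a log2 fold change of -0.62 (adjusted p = 1.21e-11 by edgeR), and was called lower with library size alone, at -1.02.

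Ratios of counts within a library do not depend on how libraries are scaled against each other. There were 0.576, 0.424 and 0.485 Nod2 counts for each Nod1 count in PBS libraries and 4.995, 4.89 and 4.33 in LPS libraries. Per kb of exon, where lengths are those of all annotated exons merged (5014 bp for Nod2 and 5079 bp for Nod1), the ratio was between 0.429 and 0.584 in PBS and between 4.38 and 5.06 in LPS libraries. Nod1 was thus the more abundant sensor transcript in each PBS library and Nod2 in each LPS library. The ratio differed 9.63-fold between the groups (exact two-sided permutation test, p = 0.1, n = 3 each). Ripk2 had 0.0943 to 0.0963 counts per Ripk1 count in PBS and 1.83 to 1.86 in LPS libraries, a 19.4-fold difference (exact two-sided permutation test, p = 0.1, n = 3 each). With 3 libraries per group, 0.1 is the smallest p this test can give, and it stays 0.1 after Benjamini-Hochberg adjustment over the 4 ratios that were compared.

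Of the lysosomal transporters, Slc15a3 (ENSMUSG00000024737.2, chromosome 19, 10839727 to 10859362, plus strand) was the most abundant transcript of the 6 before and after LPS. It had 9118, 8485 and 8488 counts in PBS and 21518, 21912 and 22051 in LPS libraries, or 191.5, 187.8 and 184.0 against 641.2, 671.3 and 647.9 normalized CPM. The lowest LPS library lay far above the highest PBS library. The log2 fold change was 1.80 (SE 0.03, edgeR adjusted p = 2.18e-18), 3.48-fold, and 1.74, 1.84 and 1.82 in the same-numbered pairs. Of its 5491 exonic bp, 1541 are shared with exons of Tmem132a on the opposite strand. The library kit keeps the strand of the RNA, but the strand setting of the counting is not given in the sources used here. Tmem132a had 444, 490 and 476 raw counts in PBS and 444, 431 and 502 in LPS libraries, which overlap. After TMM scaling (mean factor 1.15 in PBS and 0.869 in LPS libraries), each LPS library lay above each PBS library for Tmem132a too.

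Slc15a4 (ENSMUSG00000029416.17, chromosome 5, 127595664 to 127632897, minus strand) was the gene of the 6 that fell. It had 5551, 5951 and 5461 counts in PBS and 2073, 2154 and 2084 in LPS libraries, in normalized CPM 116.6, 131.7 and 118.4 against 61.8, 66.0 and 61.2. Each LPS library was below each PBS library. The log2 fold change was -0.96 (SE 0.05, 95% interval -1.05 to -0.86, adjusted p = 2.89e-12 by edgeR), a level 1.94-fold lower, and -0.92, -0.997 and -0.95 in the same-numbered pairs. This change passed the adjusted p and lay just short of the fold criterion. With upper quartile scaling it was -1.10 and with library size alone -1.36, and the gene was then called lower.

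Slc15a2 (ENSMUSG00000022899.9, chromosome 16, 36750177 to 36784962, minus strand) had the lowest level per kb of exon among the 6 genes in both groups, while by counts Nod1 was lower in LPS libraries. Slc15a2 had 184, 164 and 190 counts in PBS and 814, 794 and 875 in LPS libraries, or 3.86, 3.63 and 4.12 against 24.3, 24.3 and 25.7 normalized CPM. No PBS library reached the level of an LPS library. The log2 fold change was 2.68 (SE 0.07, edgeR adjusted p = 4.37e-16), 6.39-fold, and 2.65, 2.74 and 2.64 in the same-numbered pairs. The other peptide transporters of the family, Slc15a1 of the intestinal epithelium and Slc15a5, had 0 counts in all 6 libraries, which allows up to 3 counts, or 0.0919 normalized CPM, in a library (counting error only).

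**Figure D2:**
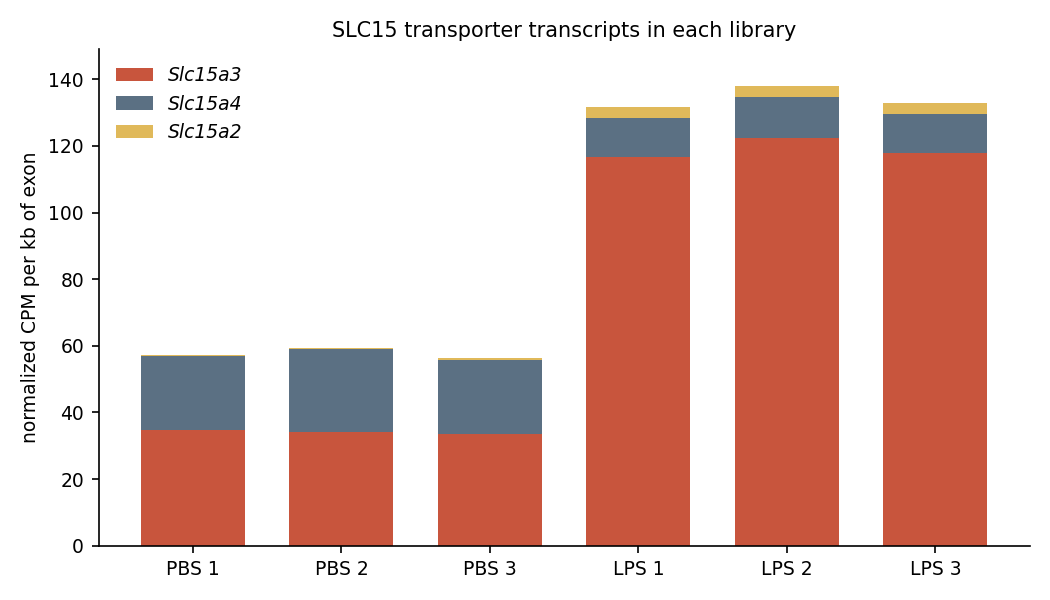
Normalized CPM per kb of merged exon (vertical axis, linear from 0) of Slc15a3, Slc15a4 and Slc15a2, stacked, in each library (horizontal axis). The sum lies between 56.3 and 59.5 in PBS and between 131.7 and 138.0 in LPS libraries, and the Slc15a4 segment shrinks while the others grow.

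Set side by side per kb of exon, Slc15a3 held 59.3% ± 1.67, Slc15a4 39.8% ± 1.72 and Slc15a2 0.912% ± 0.082 of the summed level of the 3 transporter transcripts in PBS libraries (SD, n = 3). In LPS libraries Slc15a3 held 88.7% ± 0.0537, Slc15a4 8.83% ± 0.169 and Slc15a2 2.51% ± 0.116 (SD, n = 3). The exon length of Slc15a3 includes the 1541 bp shared with Tmem132a. Its level per kb and these shares therefore depend on how reads there were counted. The transporter transcripts thus went from a mixture of Slc15a3 and Slc15a4 to one made up mainly of Slc15a3. Within a library there were 1.64, 1.43 and 1.55 Slc15a3 counts per Slc15a4 count in PBS and 10.4, 10.2 and 10.6 in LPS libraries, which is 6.75-fold more (exact two-sided permutation test, p = 0.1, n = 3 each). The count ratio of Slc15a2 to Slc15a4 was 12.4-fold higher in LPS libraries (exact two-sided permutation test, p = 0.1, n = 3 each).

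By level per kb of exon, the order in PBS libraries was Slc15a3 (34.2 ± 0.686 CPM per kb), Slc15a4 (23.0 ± 1.56), Ripk2 (4.37 ± 0.0705), Nod1 (3.88 ± 0.187), Nod2 (1.93 ± 0.207) and Slc15a2 (0.526 ± 0.0331; SD, n = 3 each). In LPS libraries it was Slc15a3 (119.0 ± 2.88 CPM per kb), Ripk2 (55.2 ± 0.978), Nod2 (18.4 ± 0.230), Slc15a4 (11.9 ± 0.491), Nod1 (3.85 ± 0.267) and Slc15a2 (3.36 ± 0.111; SD, n = 3 each). Neighbours in either order did not overlap between libraries of one group. The closest in CPM per kb were Nod1 with at least 3.69 and Slc15a2 with at most 3.49 in LPS libraries, and Ripk2 with at least 4.29 and Nod1 with at most 4.07 in PBS libraries. The order of genes was not tested, and for these close neighbours it depends on the merged exon lengths. Before division by length, Nod1 was above Ripk2 in PBS libraries, with means of 19.7 and 12.3 CPM. In LPS libraries it was below Slc15a2, with means of 19.6 and 24.8 CPM. Ripk2 and Nod2 passed above Slc15a4 in LPS libraries.

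**Figure D3:**
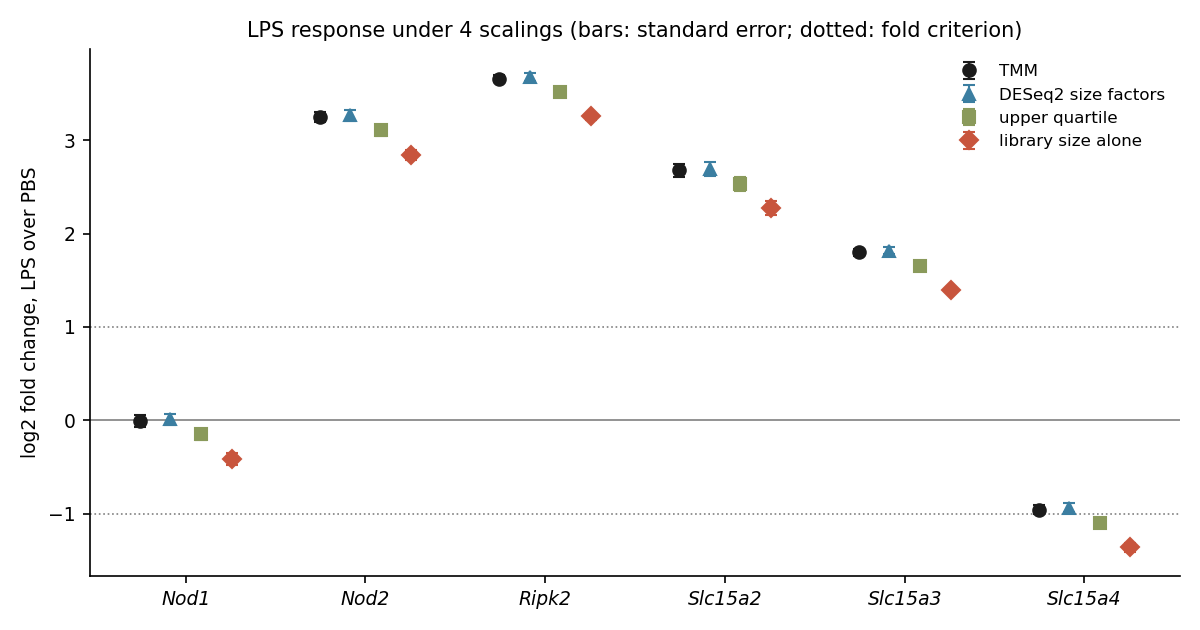
Log2 fold change of LPS over PBS (vertical axis) with its SE for the 6 genes under TMM, DESeq2 size factors, upper quartile scaling and library size alone, with dotted lines at the fold criterion of 1 in either direction. Nod2, Ripk2, Slc15a2 and Slc15a3 stay above 1 under all 4 scalings, Slc15a4 lies between -0.94 and -1.36, and Nod1 between 0.010 and -0.41.

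Promoter windows of the RefSeq table (GRCm38.p6) were matched by symbol for 4 of the 6 genes, and entries for Ripk2 and Slc15a3 were not matched. The windows of Nod1, Nod2 and Slc15a2 are shown, each as the bases upstream of the start site that lie in no annotated exon, 5′ to 3′ on the strand of the gene. The Nod2 bases stop where its first GENCODE exon begins. For Slc15a4 the window begins within an annotated exon and is not shown. Its RefSeq start site, 127617392, lies inside the GENCODE gene, whose 5′ end is at 127632897. Capitals mark GGGCGG, the box that SP and KLF factors bind, on either strand.
Nod1, chr6:54972613-54972862, minus strand: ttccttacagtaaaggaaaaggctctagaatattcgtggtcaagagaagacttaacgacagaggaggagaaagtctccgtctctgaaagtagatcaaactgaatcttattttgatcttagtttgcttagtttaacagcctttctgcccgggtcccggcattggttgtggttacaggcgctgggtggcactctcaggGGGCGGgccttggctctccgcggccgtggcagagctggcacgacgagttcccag
Nod2, chr8:88647097-88647314, plus strand: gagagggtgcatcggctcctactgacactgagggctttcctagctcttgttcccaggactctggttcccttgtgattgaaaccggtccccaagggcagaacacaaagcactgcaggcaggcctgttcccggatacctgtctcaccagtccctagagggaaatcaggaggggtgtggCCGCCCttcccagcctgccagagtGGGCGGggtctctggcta
Slc15a2, chr16:36784963-36785212, minus strand: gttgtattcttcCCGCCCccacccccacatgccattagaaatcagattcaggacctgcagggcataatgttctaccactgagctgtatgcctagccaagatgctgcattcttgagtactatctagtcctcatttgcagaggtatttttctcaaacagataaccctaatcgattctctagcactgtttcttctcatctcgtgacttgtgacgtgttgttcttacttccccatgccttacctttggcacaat

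Both strands of the 250 bases before the start site were searched. Counted from the RefSeq start site, GGGCGG began at -54 in the Nod1 window shown, at -74, -50 and -17 in Nod2 and at -238 in Slc15a2. In Slc15a4 it began at -93 and -72, before the start site inside the gene. It was present in 32.7% of all 32851 windows. The 10-base NF-κB consensus, TGANTCA of AP-1, GAGGAA of PU.1 and GAAANNGAA of IRF factors were found in none of the 5 windows of these 4 genes, against 7.3%, 6.7%, 23.3% and 7.1% of all windows. This says only that these letters are not in these windows, and matches are not binding sites.

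The proteins on which NOD1 and NOD2 signals depend were read from a list of 17 genes for ubiquitin ligases and kinases around RIPK2, all of which were tested. Of these, 2 were called higher (11.8%) and 1 lower, against 10.5% and 10.4% of all tested genes, so the calls were near the general rate. By the adjusted p alone 9 were higher, 7 were lower and 1 did not pass, against 32.9% higher and 34.9% lower of all tested genes. The median log2 fold change was 0.20, against -0.01 over all tested genes. Birc3, which encodes the ligase cIAP2, rose by 2.66 on the log2 scale (SE 0.04, edgeR adjusted p = 8.66e-21). Birc2, which encodes cIAP1, rose by 1.28 (adjusted p = 1.65e-14), or by 0.87 with library size alone, which ends the call. Xiap, the ligase that RIPK2 signalling depends on most, had a log2 fold change of 0.27 (adjusted p = 1.08e-05), which was -0.14 with library size alone.

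None of the 3 linear ubiquitin ligase subunits was higher by the adjusted p. Rnf31, the catalytic subunit, fell by 0.73 on the log2 scale (adjusted p = 7.64e-11 by edgeR) and was called lower with library size alone, at -1.13. Sharpin had a log2 fold change of -0.32 and Rbck1 one of -0.0041 (adjusted p = 0.935), or 0.015 with DESeq2's size factors. Among the kinase modules, Tab1, a subunit that activates TAK1, fell by 1.41 (adjusted p = 6.01e-12), while Tab2, which binds ubiquitin chains, had a log2 fold change of 0.49. Map3k7, which encodes TAK1, had 0.37, which turned to -0.03 with library size alone. Of the catalytic IKK subunits, Ikbkb had 0.74, or 0.34 with library size alone, and Chuk had 0.20, or -0.20 with library size alone. Ikbkg, the IKK subunit that binds linear chains, had -0.47.

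Among 9 genes for proteins that dampen RIPK2 signalling, 2 were called higher (22.2%) and 0 lower, against 10.5% and 10.4% of all tested genes. By the adjusted p alone 5 were higher, 3 were lower and 1 did not pass, against 32.9% higher and 34.9% lower of all tested genes. The median log2 fold change was 0.42, against -0.01 over all tested genes. Tnfaip3, which encodes the ubiquitin editing enzyme A20, had 1894, 1714 and 1820 counts in PBS and 135990, 133277 and 136489 in LPS libraries, a log2 fold change of 6.70 (SE 0.04, edgeR adjusted p = 7.7e-25). Spata2, which brings the deubiquitinase CYLD to ubiquitin ligases, rose by 1.04 (adjusted p = 1.41e-11) and by 0.90 with upper quartile scaling and 0.64 with library size alone, both of which end the call. Erbin, a NOD2 binding protein, had 0.85. Trim27, a ligase for NOD2, fell by 0.87 (adjusted p = 1.37e-11) and was at -1.01 with upper quartile scaling and -1.27 with library size alone, so that the list then had 1 gene called lower. Atg16l1, an autophagy protein that NOD1 and NOD2 bind, fell by 0.58 (adjusted p = 7.15e-10). Otulin, which removes linear chains, had 0.0098 (adjusted p = 0.854), or -0.40 with library size alone.

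**Figure D4:**
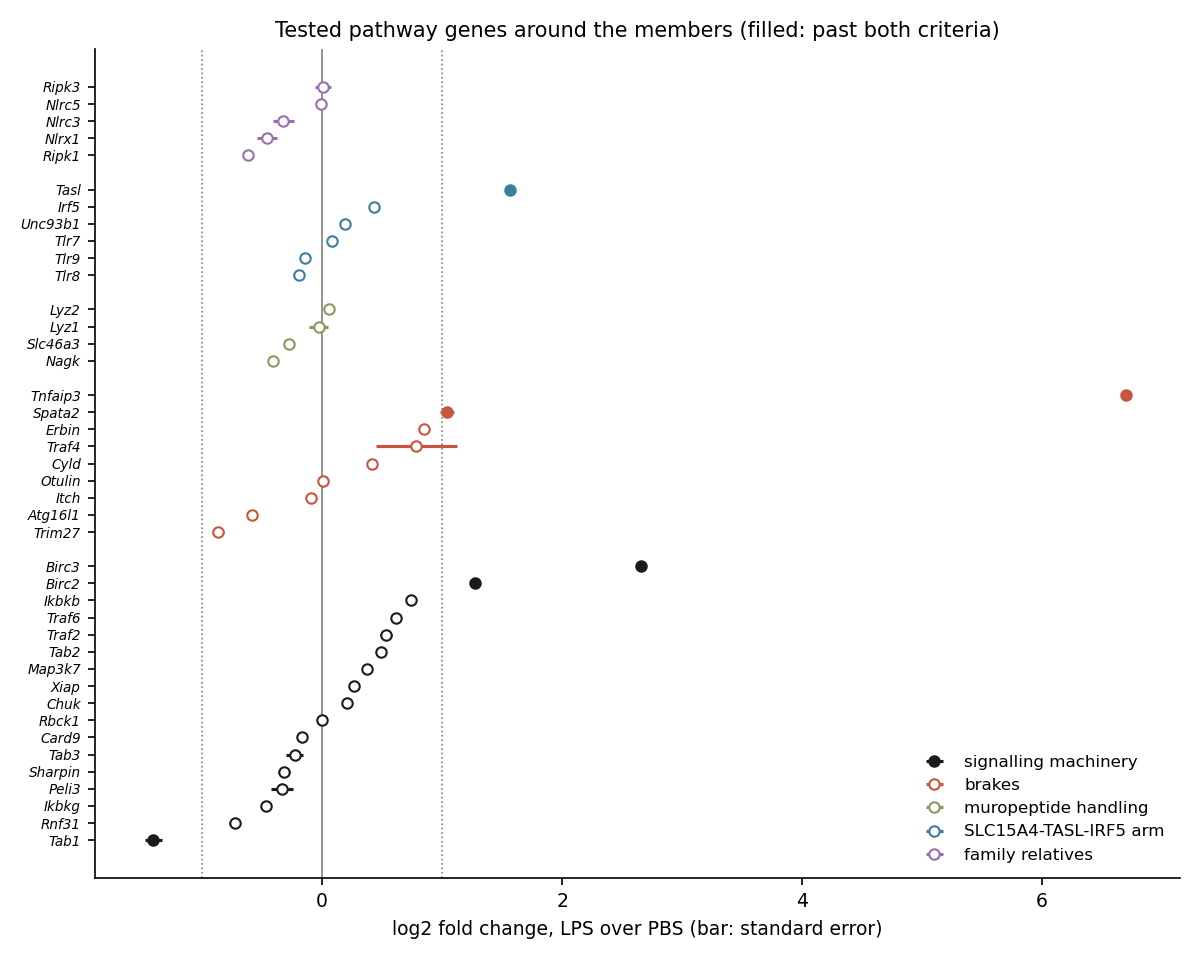
Log2 fold change of LPS over PBS (horizontal axis, bar for the SE) of each tested gene (rows) of 5 lists, with filled points for genes past both criteria and dotted lines at the fold criterion of 1 in either direction. Tnfaip3 stands apart at 6.70, followed by Birc3 at 2.66 and Tasl at 1.56, and Tab1 is the called gene on the lower side at -1.41.

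The partner of SLC15A4 moved against it. Tasl, listed as 5430427O19Rik, had 1985, 1785 and 1748 counts in PBS and 3916, 3662 and 4199 in LPS libraries, and rose by 1.56 on the log2 scale (SE 0.04, edgeR adjusted p = 8.37e-16). It was the called gene among the 6 of its list, with 1 called higher (16.7%, against 10.5% of all tested genes), 0 lower and a median of 0.14. Irf5, the transcription factor that TASL recruits, had a log2 fold change of 0.44, and the endosomal receptors Tlr7, Tlr8 and Tlr9 had 0.08, -0.20 and -0.14. With library size alone Irf5 was at 0.03 and Tlr7 at -0.32.

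Of 7 genes for releasing, processing and carrying muropeptides 4 were tested, with a median log2 fold change of -0.15. Of these, 0 were called in either direction, against 10.5% higher and 10.4% lower of all tested genes. With 4 genes, 0 calls is not far from the general rate. By the adjusted p alone 1 was higher, 2 were lower and 1 did not pass, against 32.9% higher and 34.9% lower of all tested genes. Nagk, the kinase that phosphorylates muramyl dipeptide before NOD2 senses it, fell by 0.41 (adjusted p = 3.97e-08 by edgeR), and Slc46a3, a lysosomal carrier, by 0.28 (adjusted p = 3.57e-06). Lyz2, the macrophage lysozyme, had between 785254 and 1129279 counts and a log2 fold change of 0.06, which turned to -0.35 with library size alone. Lyz1 had between 737 and 1234 counts, which may include reads of the nearly identical Lyz2. Slc46a2 had 0 counts in all libraries. Among 8 relatives of the 6 genes by family, 5 were tested, with a median log2 fold change of -0.32. Of these 0 were called (1 with library size alone, Ripk1), which with 5 genes is again not far from the general rate. By the adjusted p alone 0 were higher, 3 were lower and 2 did not pass. Nlrc3 had -0.32, Nlrc5 -0.0064 and Nlrx1 -0.46, and Ripk3, the necroptosis kinase, had 0.0095 (adjusted p = 0.911). With library size alone Nlrc5 was at -0.41 and Ripk3 at -0.40.

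For each of the 6 genes, the tested protein-coding genes with the most similar profile were found among 10707 candidates, by the Euclidean distance between log2 CPM values over the 6 libraries, each gene centred. The nearest were Ehd1, Tlr2 and Vegfa for Ripk2 (distances 0.0446, 0.0955 and 0.109 on the log2 scale), and Itga5, Ddit4 and Cflar for Nod2 (0.176, 0.177 and 0.192). For Slc15a3 they were N4bp1, Ndrg1 and Fancc (0.0762, 0.0887 and 0.0897), for Slc15a2 Tiparp, Zfp131 and Tagap (0.0958, 0.111 and 0.116), and for Slc15a4 Adprhl2, Klhl21 and BC037034 (0.0496, 0.065 and 0.0717). Nod1 lay nearest to Cklf, Fgfr1op and Ilkap (0.0936, 0.095 and 0.1), whose log2 fold changes were -0.08, -0.05 and 0.03. The 6 points of each profile fall into the 2 groups and share libraries, so these lists are a description.

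The libraries held between 37787611 and 41516330 counts, with TMM factors averaging 1.15 in PBS and 0.869 in LPS libraries. Of all tested genes, 1653 were called higher and 1624 lower, or 1213 and 2964 with library size alone. All 8 macrophage markers were tested, with summed levels of 29950 to 31230 normalized CPM in PBS and 35890 to 36240 in LPS libraries. Lyz2 held means of 23272 and 24224 CPM of this. Cd14, with means of 398 and 3623 CPM, was the called gene among them. Fcgr1 fell by 0.48 on the log2 scale (edgeR adjusted p = 2.62e-10). With library size alone the log2 fold changes of Adgre1, Csf1r, Cd68, Itgam and Lyz2 turned negative. The defining T cell markers Cd3d, Cd3e, Cd3g, Cd8a and Trac had at most 9 counts in any library, whereas Cd4 had 927 to 1025. The B cell list summed to 2.88 to 3.17 CPM in PBS and 2.88 to 3.64 in LPS libraries, and the fibroblast list to 13.5 to 14.6 and 15.2 to 17.6. The granulocyte list summed to 33.6 to 35.8 and 44.3 to 46.2. S100a9 and S100a8 held most of this, with means of 19.4 and 11.3 CPM in PBS and 25.0 and 15.0 CPM in LPS libraries. Their log2 fold changes were 0.37 and 0.40 (edgeR adjusted p = 8.01e-05 and 0.000106), or -0.038 and -0.0032 with library size alone. Ly6g had at most 3 counts. Of the dendritic cell markers, 4 of 5 were called higher (Flt3, Zbtb46, Xcr1 and Siglech, the last not with upper quartile scaling or library size alone), against 10.5% of all tested genes. Counts were low, with 2, 1 and 2 for Xcr1 in PBS and 27, 17 and 15 in LPS libraries. Zbtb46 had 19, 18 and 18 against 72, 67 and 87. The sum over all 5 dendritic cell markers was 4.07 to 5.01 CPM in PBS and 11.1 to 11.7 in LPS libraries. The part of such cells in the results was not tested. In bulk libraries, fewer cells of a type and less RNA per cell cannot be told apart.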

How the data were processed

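RNA-seq counts of 6 BMDM libraries were used, 3 PBS and 3 LPS, grouped by their titles. Read pairs (101 bp) were mapped by the authors with HISAT2 2.1.0 on GRCm38, and featureCounts 2.0.0 gave the raw gene counts they deposited (versions, with SAMtools 1.17, per the submitters' processing notes). The annotation release, strand setting and treatment of multi-mapping reads are not given in the sources used here. Of 55335 identifiers, 55154 matched GENCODE M21 with the version ignored, and those of the 6 genes were identical.

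Testing used edgeR 4.0.16 under R 4.3.3 (filterByExpr, TMM, quasi-likelihood test, Benjamini-Hochberg over all tested genes). Standard errors were derived from the F statistic. The study names DESeq2 for this step, which was run here as an alternative (1.42.0), as was limma voom (3.58.1). Functions were tested on simulated data.

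The labels call same-numbered replicates batches, which is where the pairing comes from. Across genes, the departures of a PBS and an LPS library of one number from their group means correlated by -0.0139, 0.0822 and 0.0387. The main model had no block. The study states pairwise comparisons and names no batch term.

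The 6 genes, the lists and the motifs were chosen with earlier results of these data known. The text names the 6 genes, genes of the lists, and the 3 tested protein-coding genes nearest to each of the 6 (mean of at least 50 counts). Tmem132a and 3 other overlapping loci were named outside this rule.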

Additional observations from a re-analysis of the deposited data

How the results depend on the processing

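Other scalings (by library size alone, upper quartile or DESeq2's size factors), no filter beyond 1 count, at least 10 counts in every library, DESeq2's test, limma voom, the replicate block, edgeR's glmTreat at a log2 threshold of 1, and leaving out each library were tried. Nod2, Ripk2, Slc15a2 and Slc15a3 kept their direction and an adjusted p under 0.05 in all 15 fits, with log2 fold changes of 2.84 to 3.33, 3.25 to 3.68, 2.27 to 2.72 and 1.39 to 1.82. With the replicate block they were called as well, 3276 genes were called in all, and no call of the 6 genes changed. Requiring 10 counts in every library left 2168 called genes. Nod1 had a log2 fold change of 0.010 with DESeq2's size factors and with DESeq2's test, -0.41 with library size alone, -0.15 with upper quartile scaling (adjusted p = 0.0374 by edgeR), and -0.072 to 0.028 with a library left out, so its direction is not determined. Slc15a4 was the 1 of the 6 genes called lower, under 2 scalings, by library size alone (-1.36) and upper quartile (-1.10). It lost an adjusted p under 0.05 only in glmTreat (-0.96), as that test is built to do, and lay between -0.99 and -0.90 with a library left out. The 4 count ratios kept their direction in all alternatives, and with the replicate block (signs permuted within pairs) their exact p was 0.25, the smallest that 3 pairs allow. The lowest count among the 6 genes was 164.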

Other observations

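Other rows of the count table lie within the 6 genes. Gm22690, annotated as a miRNA on the same strand as Ripk2 and sharing 0 bp with its exons, had 0, 7 and 2 counts in PBS and 20, 20 and 27 in LPS libraries. AC132402.1, annotated as antisense to Slc15a3 and sharing 0 bp with its exons, had 3, 6 and 0 counts in PBS and 11, 13 and 10 in LPS libraries. Gm43474 shares 427 bp with exons of Slc15a4 on the opposite strand and had at most 4 counts in any library. These rows were chosen after their values were seen.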
